A study of Arabidopsis thaliana with 9 samples.

Results

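Expression was compared between detached dark leaves of Arabidopsis thaliana kept with compound 3 and leaves kept with the solvent alone. The columns were chosen by the treatment that the sample titles name, which gave 6 of the 9 arrays of the series, 3 with compound 3 and 3 controls. All transcript clusters paired with exactly 1 gene were used, 16722 of 38408. A transcript cluster groups the probes that the array assigns to 1 transcribed region. These clusters stand for 16548 genes, of which 1804 carry a symbol other than the locus identifier and 14744 do not. All plants were Col-0, a standard laboratory accession without a transgene in the labels, and were 21 days old. Each sample was 10 to 15 cut leaves in MS medium, a mineral salt medium, kept for 48 h without light. The medium held 10 µM of compound 3, 10 µM of compound 6 (the third group, used only for the last comparison) or, in controls, 0.05% DMSO. Both compounds are cytokinins according to the labels, which give only these code names.

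Cytokinins are plant hormones that membrane-bound histidine kinases perceive. The receptors pass a phosphate through shuttle proteins to type-B response regulators, transcription factors that switch on, among others, the type-A response regulators, which dampen the signal. A detached leaf in the dark senesces: it stops transcribing photosynthesis genes, dismantles its chloroplasts and exports or respires the amino acids, lipids and sugars set free. Cytokinin is known for slowing this loss.

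The values are log2 expression values, so that a difference of 1 is a 2-fold change. Over the clusters of 1 gene the medians of the 9 arrays lay between 3.70 and 3.81, no pair of arrays was identical, and a cluster's median SD was 0.235 with compound 3 and 0.261 in controls. The labels call the replicates biological and number them 1 to 3 in every group. The sample descriptions also carry running numbers, in which each group is an unbroken block and the controls lie apart from both treatments, so handling in that order cannot be told apart from treatment. Leaves were not sampled at the start of the 48 h; higher, lower, rose and fell therefore compare with control leaves at 48 h, and a gain over the start cannot be told from a slower loss. In whole leaves, fewer cells of a type and less RNA per cell cannot be told apart. The labelled tissue was checked against markers of leaf and other organs. Rubisco activase (RCA) stood at 9.90 in control leaves and the light-harvesting gene LHB1B2 at 10.3. The meristem gene CLV3 stood at 1.45, the root hair expansin EXPA7 at 2.08, the trichome spacing gene TRY at 2.63 and the guard cell factor FMA at 5.71, and none of these 4 was called.

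Of the 16722 transcript clusters 1957 (11.7%) differed between compound 3 and control leaves, 936 (5.6%) higher and 1021 (6.11%) lower with compound 3 (limma, Benjamini-Hochberg adjusted p under 0.05). Changes of at least 2-fold numbered 542 rises (3.24%) and 583 falls (3.49%). Falls outnumbered rises more among the large changes, with 66 rises (0.395%) and 114 falls (0.682%) of at least 4-fold and 11 rises (0.0658%) and 32 falls (0.191%) of at least 8-fold. Beyond 16-fold there were 5 rises (0.0299%) and 1 fall (0.00598%). The 3 treated arrays all lay on the same side of the 3 control arrays for 26.4% of transcript clusters, and for 1942 of the 1957 called ones. When arrays were set to a common median over every transcript cluster, named or not, the median difference moved from 0.0097 to -0.15 and the calls to 591 higher and 1424 lower. Without compound 3 replicate 1 the rises numbered 603.

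Calls were rare among dim genes. Of 5 equal groups of transcript clusters ordered by mean level, the lowest held 0.209% higher and 0.448% lower, the middle one 5.89% and 7.09%, and the highest 9.36% and 10.8%. Of the 66 clusters that rose at least 4-fold, 22 had a control mean below every array's median, and of the 114 that fell as much, 38 had a compound 3 mean below it. Folds of such genes are approximate, because signal over background was not measured. Of the 1804 genes with a symbol 126 were higher and 143 lower (14.9% called), and of the 14744 without one 796 and 868 (11.3%). Among the 5 nuclear chromosomes the share of genes that rose lay between 4.63% (chromosome 4) and 6.51% (chromosome 5), and the share that fell between 5.33% (chromosome 2) and 7.33% (chromosome 4).

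**Figure D1:**
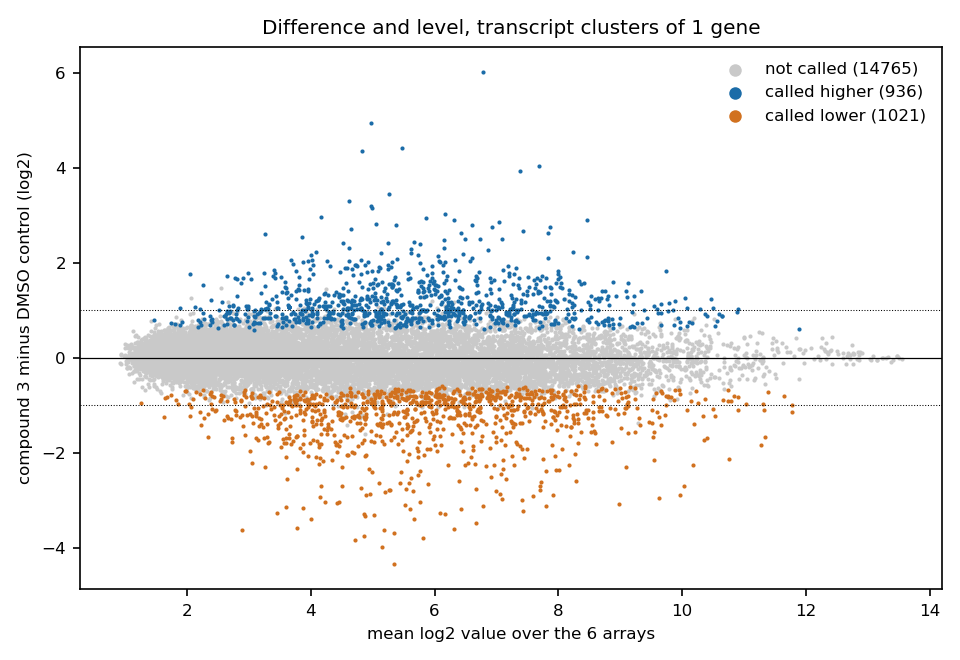
Each point is 1 transcript cluster of 1 gene, with its mean log2 value over the 6 arrays on the horizontal axis and the log2 difference, compound 3 minus DMSO control, on the vertical axis. The 936 clusters called higher and the 1021 called lower lie mostly above a level of about 3, and the dotted lines mark a 2-fold change.

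The 15 largest rises went from 7.47-fold to 65.3-fold, and 10 of the 15 genes have no symbol. NAI2 (AT3G15950), needed to form endoplasmic reticulum bodies, stood at 9.66, 9.91 and 9.84 with compound 3 and at 4.02, 3.51 and 3.79 in controls, a log2 difference of 6.03 (SE 0.22, limma adjusted p = 2.2e-09). ARR15 (AT1G74890), a type-A response regulator, read 7.26, 7.74 and 7.35 against 2.64, 2.71 and 2.13 (difference 4.96, SE 0.26, limma adjusted p = 1.1e-07). In both genes the lowest treated array was far above the highest control. AT1G49200 read 7.85, 7.82 and 7.39 against 3.76, 2.94 and 3.09, a 21.5-fold rise (limma adjusted p = 1.9e-07). AT2G30540 read 7.25, 7.12 and 6.64 against 3.03, 2.68 and 2.21, a 20.6-fold rise (limma adjusted p = 8.9e-07). These 2 loci, AT2G40200 (16.5-fold) and the 2 genes before them were the 5 that rose more than 16-fold.

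The tables used here give the 12 leading loci without a symbol no function, and they are described by their values alone. AT2G40200 was the brightest of the 12 in treated leaves, at 10.06, 9.66 and 9.38 against 5.57, 5.32 and 6.08 in controls. AT5G19190 read 9.58, 9.64 and 8.84 against 5.49, 5.74 and 5.03 (15.3-fold). Neither gene's groups came within 2 log2 units of each other. Next came AT5G50915 (11.0-fold), AT2G32550 (9.84-fold), AT4G34220 (8.88-fold), AT5G02540 (8.15-fold), AT2G15020 (7.86-fold), AT1G65230 (7.47-fold), AT1G28100 (7.22-fold) and AT5G14160 (7.04-fold). AT4G34220 varied little, at 6.61, 6.48 and 6.60 against 3.26, 3.49 and 3.49. AT5G02540 varied most, at 7.54, 8.28 and 7.24 against 4.72, 5.26 and 3.99, and its groups still did not overlap. The annotated span of AT1G65230 overlaps that of AT1G65240, which also rose (1.05), and the 2 cannot be told apart here.

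The other genes of known role completed the 15. EXPA9 (AT5G02260), an expansin that loosens cell walls, rose 9.16-fold to 6.57 ± 0.15 (SD, n = 3) from 3.37 ± 0.21. NdhL (AT1G70760), part of the NADH dehydrogenase-like complex of thylakoids, rose 7.74-fold. PUB54 (AT1G01680), a U-box protein of the type that attaches ubiquitin to other proteins, read 9.97, 9.69 and 10.1 with compound 3 but 7.40, 7.92 and 5.70 in controls. Its difference of 2.91 (SE 0.48, limma adjusted p = 0.0012) therefore rested on control values that spread over more than 2 log2 units.

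**Figure D2:**
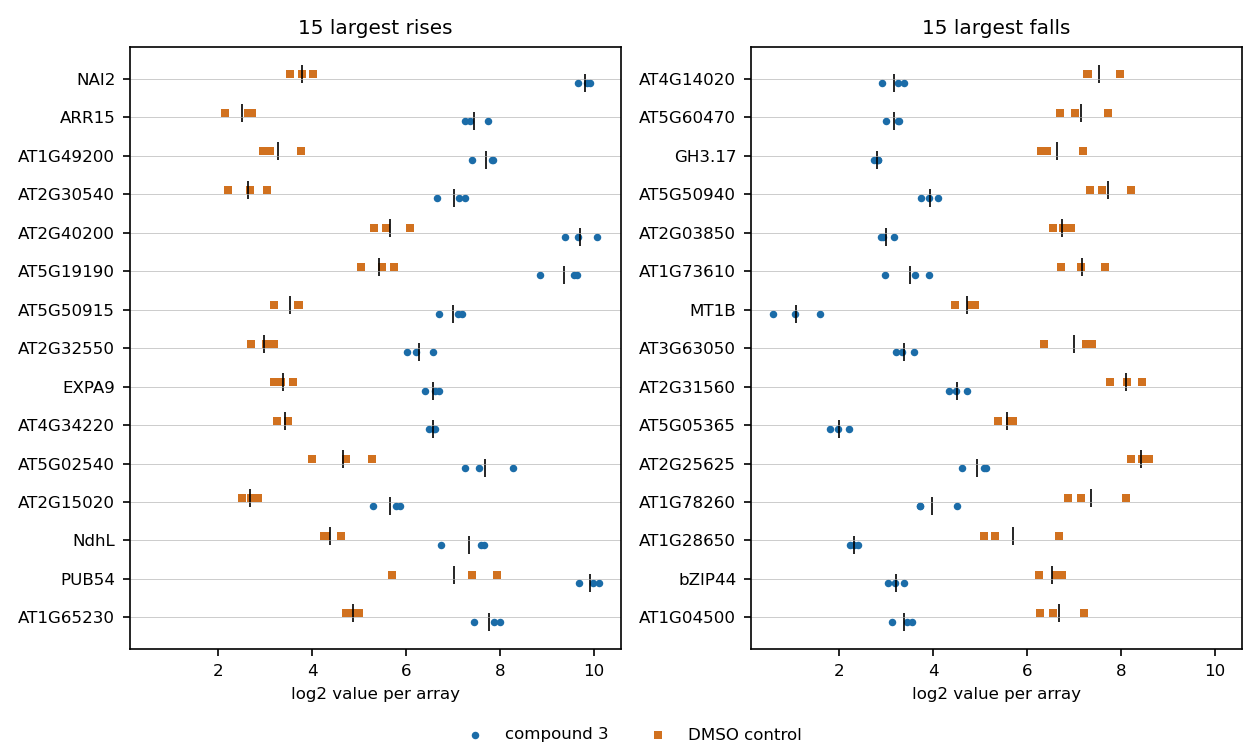
Log2 values per array of the 15 called genes with the largest rise (left) and the 15 with the largest fall (right), circles for compound 3, squares for DMSO control and a vertical tick for each group mean. In all 30 genes the 3 treated arrays lie apart from the 3 control arrays, which the choice of the genes required.

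The 15 largest falls went from 9.90-fold to 20.4-fold, and 12 of the 15 genes have no symbol. AT4G14020 fell most, reading 2.90, 3.24 and 3.38 with compound 3 and 7.30, 7.98 and 7.28 in controls, a difference of -4.35 (SE 0.23, limma adjusted p = 1.1e-07). AT5G60470 read 3.26, 3.26 and 2.99 against 6.70, 7.02 and 7.71 (15.7-fold lower, limma adjusted p = 3.2e-07). Each of these genes was well expressed in control leaves and below the array median with compound 3. AT5G50940 (13.9-fold), AT2G03850 (13.5-fold), AT1G73610 (12.8-fold), AT3G63050 (12.3-fold), AT2G31560 (12.1-fold) and AT5G05365 (11.9-fold) fell next among loci without a symbol. AT2G25625 fell 11.2-fold, AT1G78260 10.5-fold, AT1G28650 10.4-fold and AT1G04500 9.90-fold. AT2G03850 varied little, at 3.16, 2.89 and 2.92 against 6.92, 6.77 and 6.54. AT1G28650 spread most in controls, at 5.08, 5.31 and 6.68, against 2.24, 2.40 and 2.31 with compound 3.

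GH3.17 (AT1G28130), which joins amino acids to auxin, read 2.83, 2.81 and 2.73 with compound 3 and 6.28, 6.43 and 7.18 in controls (14.3-fold lower, limma adjusted p = 1.4e-06). MT1B (AT5G56795), a metallothionein that binds metal ions, read 0.59, 1.06 and 1.58 against 4.45, 4.80 and 4.88. The treated values of MT1B lie far below every array's median, so its 12.4-fold change is approximate. bZIP44 (AT1G75390), a leucine zipper transcription factor, fell 10.1-fold from 6.54 ± 0.26 to 3.20 ± 0.17 (SD, n = 3).

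Gene lists are counted here over measured members that the tables name. Measured members without a name were left out, in the numbers given beside the counts. Of genes with a symbol 6.98% rose and 7.93% fell, more than the 5.6% and 6.11% over all clusters that stand beside the counts. Few genes of cytokinin signalling were measured under a symbol, and the 3 response regulators among them rose. Both type-A response regulators rose, the other being RR16 (AT2G40670), at 9.33, 8.99 and 9.12 with compound 3 against 6.43, 5.98 and 7.16 (difference 2.62, limma adjusted p = 2.3e-05). The type-B regulator RR18 (AT5G58080) read 5.46, 4.49 and 6.56 against 3.58, 3.84 and 3.37, and its difference of 1.90 was no longer called without compound 3 replicate 3 (1.37, limma adjusted p = 0.0725), or when control replicate 3 was left out (1.79, 0.0525). Its treated arrays spread more than those of the type-A regulators. Of 3 genes of cytokinin metabolism, UGT76C2 (AT5G05860), which attaches glucose to cytokinin, rose by 1.85 (limma adjusted p = 5e-05), while the related UGT76C1 (-0.38) and UGT73C1 (0.16) did not pass. Over all clusters, 5.6% rose.

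In the lists of the Calvin cycle, photosystems, light harvesting and chlorophyll synthesis 10 genes passed the test, all higher with compound 3. In the Calvin cycle, which fixes carbon dioxide, 3 of 3 named genes rose (1 measured gene without a name was left out), with a median difference of 1.93 against 0.0097 over all clusters. SBPASE (AT3G55800) of that cycle stood at 8.31 ± 0.021 against 5.55 ± 0.27 (SD, n = 3). For the photosystems and electron transport 4 of 6 nuclear genes rose (median 0.80, 1 gene left out), and PSB27 alone of these 4 kept its call when each treated or control array was left out in turn. Of 6 chlorophyll synthesis genes 2 rose: CHLM (AT4G25080), a methyltransferase of the magnesium branch, by 1.40 and geranylgeranyl reductase (AT1G74470), which makes the phytol tail, by 1.58. LHCB4.2 was the 1 gene that passed among 4 of light harvesting, at 0.71, and it held in 1 of those 6 fits. Among 63 plastid-encoded genes 3 rose and 60 did not pass (median 0.10), a share below the 5.6% over all clusters. rpoC2, a subunit of the plastid RNA polymerase, rose by 1.16 and held in all 6 fits, while rps16 (0.83), a ribosomal protein gene, and matK (0.60), a maturase gene, each held in 1.

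Beyond these lists, genes that serve the thylakoid were among the largest rises of genes with a known name, a choice made after their values were seen. The 3 measured nuclear genes named Ndh, for subunits of the NADH dehydrogenase-like complex, all rose, NdhL by 2.95, NdhU by 1.42 and NdhN by 1.35. Subunits under other names or without a symbol were not counted. HCF101 (AT3G24430), which assembles iron-sulfur clusters for photosystem I, read 5.98, 6.21 and 5.99 against 4.60, 3.79 and 4.11, a rise of 1.90. CCB3 (AT5G36120), which helps to fit a haem into the cytochrome b6f complex, read 6.20, 6.42 and 5.92 against 3.98, 4.32 and 4.64 (1.86). The arrays of the 2 groups lay over 1 log2 unit apart in both genes. LIL3:2 (AT5G47110), a light-harvesting-like protein that binds geranylgeranyl reductase, rose by 1.53, the plastid envelope protein LrgB (AT1G32080) by 1.57 and CaS (AT5G23060), a thylakoid calcium sensor, by 2.21. A pair of light signalling factors rose as well, the bZIP factor HYH (AT3G17609) by 1.82 and the phytochrome-interacting factor PIF7 (AT5G61270) by 1.46. NOL (AT5G04900), a chlorophyll b reductase of chlorophyll breakdown, fell by 1.78 on the log2 scale.

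Genes of autophagy that passed were lower with compound 3, and proteases went in both directions. Of 9 autophagy genes 4 fell and 5 did not pass (median -0.71, with 5 genes left out for want of a name; 6.11% of all clusters fell), all 4 of them ATG8 forms, whose products coat autophagosomes. Of 61 genes described as proteases or peptidases 7 fell and 3 rose (median -0.10), against 6.11% and 5.6% over all clusters. Among genes with a symbol 7.93% fell and 6.98% rose. Among the protease calls 6 held in all 6 fits without an array. Serine carboxypeptidase-like enzymes made up 5 of the 7 falls and, with 25 measured, also 1 of the rises. In scpl48 (AT3G45010) the treated arrays read 8.23, 7.93 and 7.70 and the controls 10.1, 10.1 and 10.5, a fall of 2.29 on the log2 scale (limma adjusted p = 8.3e-06). scpl20 (AT4G12910) fell by 2.09 and scpl35 (AT5G08260) by 1.63, whereas scpl42 (AT5G42240) rose by 1.39. The vacuolar processing enzyme GAMMA-VPE (AT4G32940) fell by 1.66 from 12.2, one of the highest levels in control leaves. Its annotated span overlaps that of AT4G32930, which was also lower (-0.82). The aminopeptidase APM1 (AT4G33090) fell by 1.40 and the aspartic proteinase APA1 (AT1G11910) by 0.97.

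Of 5 genes known to be induced by darkness and carbon starvation 3 fell (median -0.84, 1 gene left out), against 6.11% of all clusters. AT4G33150, which breaks down lysine, fell by 1.72 and MCCB (AT4G34030) of leucine breakdown by 1.48. The other, D2HGDH (AT4G36400), fell by 0.84, a call kept in 2 of the 6 fits. DELTA-OAT (AT5G46180), an ornithine aminotransferase, fell by 1.57, chosen after its value was seen. Proteins of ubiquitin-dependent breakdown were found on both sides. SKP2A (AT1G21410), an F-box protein, read 4.71, 4.76 and 4.03 against 6.63, 6.87 and 7.42 (difference -2.47). UBC29 (AT2G16740), a ubiquitin-conjugating enzyme, read 5.51, 5.23 and 5.33 against 6.99, 7.36 and 8.52 (-2.26), with the wider spread in controls. Of 8 U-box proteins PUB54 and PUB26 rose (2.91 and 0.74) and PUB25 and PUB43 fell (by 1.29 and 1.16), against 5.6% and 6.11% over all clusters. PUB26 kept its call in 1 of the 6 fits without an array, and the other 3 in all.

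Sugar and storage metabolism had 2 falls and no rise among 8 starch and sugar genes (median -0.44, 1 gene left out). The shares over all clusters were 6.11% lower and 5.6% higher. AMY1 (AT4G25000), an alpha-amylase that splits starch, fell by 2.92, and APL3 (AT4G39210), a subunit of the enzyme that makes ADP-glucose, by 0.87, a call that ended without compound 3 replicate 2 (-0.63, limma adjusted p = 0.0707). ATSPS4F (AT4G10120), a sucrose-phosphate synthase and thus an enzyme of sucrose synthesis, was one of the steadiest falls. Its arrays read 5.67, 5.49 and 5.45 with compound 3 and 7.81, 7.68 and 7.81 in controls (difference -2.23, SE 0.18, limma adjusted p = 2e-06). NHL26 (AT5G53730), a membrane protein linked to sugar export in the phloem, fell by 3.03, and the sugar transporter-like SFP1 (AT5G27350) by 1.37. A list of 17 genes described as sugar transporters, matched by words in their names, did not include SFP1. Of the 17, 1 passed, SWEET16 (AT3G16690), higher by 0.84 with a call kept in 2 of the 6 fits. APS3 (AT4G14680) and APS4 (AT5G43780), ATP sulfurylases that activate sulfate, fell by 1.27 and 1.26. They were chosen after their values were seen, and the family was not counted.

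Enzymes that move sugars between hormones, flavonoids and other small molecules went in both directions. Of 48 genes described as UDP-glycosyltransferases 9 fell and 3 rose (median -0.13), and over all clusters 6.11% fell and 5.6% rose. The 48 were matched by words in their names and do not include UGT76B1 (2.09, described below). The counts are therefore not of the whole family. Among these calls 6 held in all 6 fits without an array. The falls of UGT89B1, UGT74D1, UGT87A2, UGT88A1 and SGT and the rise of UF3GT did not. All 5 measured UGT85A genes had negative differences, and 3 of them passed: UGT85A5 (AT1G22370) fell by 1.51, its neighbour UGT85A2 (AT1G22360) by 1.18 and UGT85A4 (AT1G78270) by 1.57. UGT85A4 has a second transcript cluster that did not pass (-0.09, limma adjusted p = 0.86), so its fall rests on 1 of 2 probe groups. UGT73B2 (AT4G34135), which acts on flavonoids, fell by 1.43, and UGT73D1 (AT3G53150) rose by 1.70. UGT76B1 (AT3G11340), which glucosylates salicylate and isoleucic acid, read 6.29, 6.18 and 6.85 against 4.58, 5.43 and 3.04, and its difference of 2.09 lost its call without compound 3 replicate 3 (1.89, limma adjusted p = 0.057). Control replicate 3 was its lowest array by far. Among 22 beta-glucosidase genes named BGLU 4 rose and 4 fell (median 0.17), against 5.6% and 6.11% over all clusters. BGLU31 (AT5G24540) rose by 1.81, BGLU44 (AT3G18080) by 1.28, BGLU41 (AT5G54570) fell by 1.88 and BGLU40 (AT1G26560) by 1.52. The glucosidases of the endoplasmic reticulum body itself, PYK10 (-0.07), BGLU21 (0.29) and BGLU22 (-0.12), did not pass, so NAI2 was the 1 call among 6 named genes of that list, from which 3 were left out.

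The neighbours MSRB8 (AT4G21840) and MSRB9 (AT4G21850), methionine sulfoxide reductases that repair oxidised methionine, rose by 2.49 and 1.57, and 4 other measured MSRB genes did not pass. MSRB8 read 7.71, 7.58 and 6.89 against 4.73, 5.18 and 4.80. Of 13 glutathione S-transferases GSTU18 (AT1G10360) rose by 1.49 and 12 did not pass (5.6% of all clusters rose). Of 6 peroxidases PRXCA (AT3G49110) rose by 1.67. Of 21 measured genes of CYP71B, a subfamily of the cytochromes P450, 3 fell (median -0.17), against 6.11% of all clusters. The list of 20 genes described as cytochromes P450 had the same 3 falls and the same lowest and highest differences. Whether the falls are particular to CYP71B among cytochromes P450 therefore cannot be told here. CYP71B20 (AT3G26180) fell by 1.33. Its neighbour CYP71B19 (AT3G26170) fell by 0.95, with a call kept in 1 of the 6 fits. CYP71B28 (AT1G13090) was not called without compound 3 replicate 2 (-0.69, limma adjusted p = 0.076) or control replicate 1 (-0.86, 0.0532). The list of CC-type glutaredoxins, a plant-specific class, held 20 measured genes, of which the tables name 3 and 17 were left out. The 17 may include loci given here by identifier alone, so the 3 do not stand for the class. Of the 3, ROXY2 (AT5G14070) rose by 1.05, which was not called without compound 3 replicate 2 (0.95, limma adjusted p = 0.056) or control replicate 3 (0.85, 0.0568). Of 3 genes described as glutaredoxins GRXC2 (AT5G40370) fell by 0.97, kept in 3 of the 6 fits.

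Of 16 listed genes of cell wall loosening 3 rose, 2 fell and 11 did not pass (median 0.23), against 5.6% and 6.11% over all clusters. All 5 calls held in each of the 6 fits without an array. The alpha-expansins EXPA9 and EXPA8 (AT2G40610) rose by 3.20 and 2.03, and the endoglucanase GH9C2 (AT1G64390) by 1.03. The expansin-like EXLB1 (AT4G17030) and EXLA1 (AT3G45970) fell by 1.85 and 1.15. Of 19 measured genes of the GH9 endoglucanase family GH9C2 and GH9B7 (AT1G75680, by 1.80) rose and 17 did not pass (median 0.05), and TBL38 (AT1G29050), of a family that acetylates wall polymers, fell by 1.93. Of 6 tubulin genes TUB6 (AT5G12250) and TUB7 (AT2G29550) rose by 1.02 and 0.84, the second with a call kept in 1 of the 6 fits.

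Of 7 auxin genes GH3.17 and WES1 (AT4G27260), both auxin-conjugating enzymes, fell, by 3.84 and 2.71 (6.11% of all clusters fell). GH3.1, GH3.3 and GH3.4 did not pass (-0.19, -0.64 and -0.04). Of 7 genes of the abscisic acid and cold response the dehydrin COR47 (AT1G20440) fell by 2.78, and KIN1, KIN2, COR15A, COR15B, LTI30 and STZ did not pass, with differences from -0.54 to 0.22. DTX50 (AT5G52050), an exporter of abscisic acid, read 4.10, 3.90 and 3.63 against 6.52, 6.77 and 6.66 (-2.78, limma adjusted p = 9.1e-07). In the salicylate and pathogen list 1 of 2 genes rose, UGT76B1, and the other, the chitinase ChiC (AT4G19810), fell by 2.26. OSM34 (AT4G11650), an osmotin, fell by 2.12, and the heat shock protein gene Hsp70-2 (AT5G02490) rose by 1.65. DTX50, OSM34 and Hsp70-2 were chosen after their values were seen. OSM34 was bright in every control array, at 11.56, 12.14 and 11.77, and read 10.08, 9.98 and 9.05 with compound 3. Fatty acid and volatile metabolism showed 2 of the largest falls of named genes. AAE16 (AT3G23790), an acyl-activating enzyme, fell by 3.23, and CHAT (AT3G03480), which makes the leaf volatile hexenyl acetate, by 3.28.

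Regulators of development were also among the genes that fell. CLE44 (AT4G13195), a peptide signal of the vascular meristem, fell by 2.78, though its annotated span overlaps that of AT4G13190, which fell by 1.26. PHV (AT1G30490), a homeodomain factor of the upper leaf side, fell by 1.45. Of 17 bZIP factors matched by words in their names 3 fell, against 6.11% of all clusters. That match left out the bZIP factors HYH (1.82) and BZIP61 (AT3G58120, 1.41), which both rose. Among the 3 falls were bZIP44 and BZIP24 (AT3G51960, by 1.13, kept in 3 of the 6 fits). The other, bZIP58 (AT1G13600), read 2.31, 3.73 and 5.95 in controls and 1.99, 2.26 and 1.86 with compound 3. Its call held in 1 of 6 fits, and without DMSO control replicate 3 its difference of -1.96 became -0.99 (limma adjusted p = 0.0985). Of 7 WRKY factors 1 passed (5.6% of all clusters rose): WRKY41 (AT4G11070) rose by 0.81, kept in 2 of the 6 fits, and WRKY6, a factor of senescence, did not pass (-0.27), nor did SAG101 (0.43).

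Several lists held no call or too few genes to describe. EIN3 of ethylene signalling stood at 10.0 and 10.4 and did not pass (-0.37), and neither did PRL of DNA replication (-0.06). None of the 4 histone genes or the 5 SAUR genes passed. Of 4 genes often used as expression references (1 left out) TUB6 alone passed, while GAPC2 (0.22), PEX4 (-0.15) and AT2G28390 (-0.79) did not. In all, 402 genes lay in 47 lists with a measured member, of which 39 rose and 43 fell. Over all clusters 5.6% rose and 6.11% fell, and 14.9% of genes with a symbol were called.

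**Figure D3:**
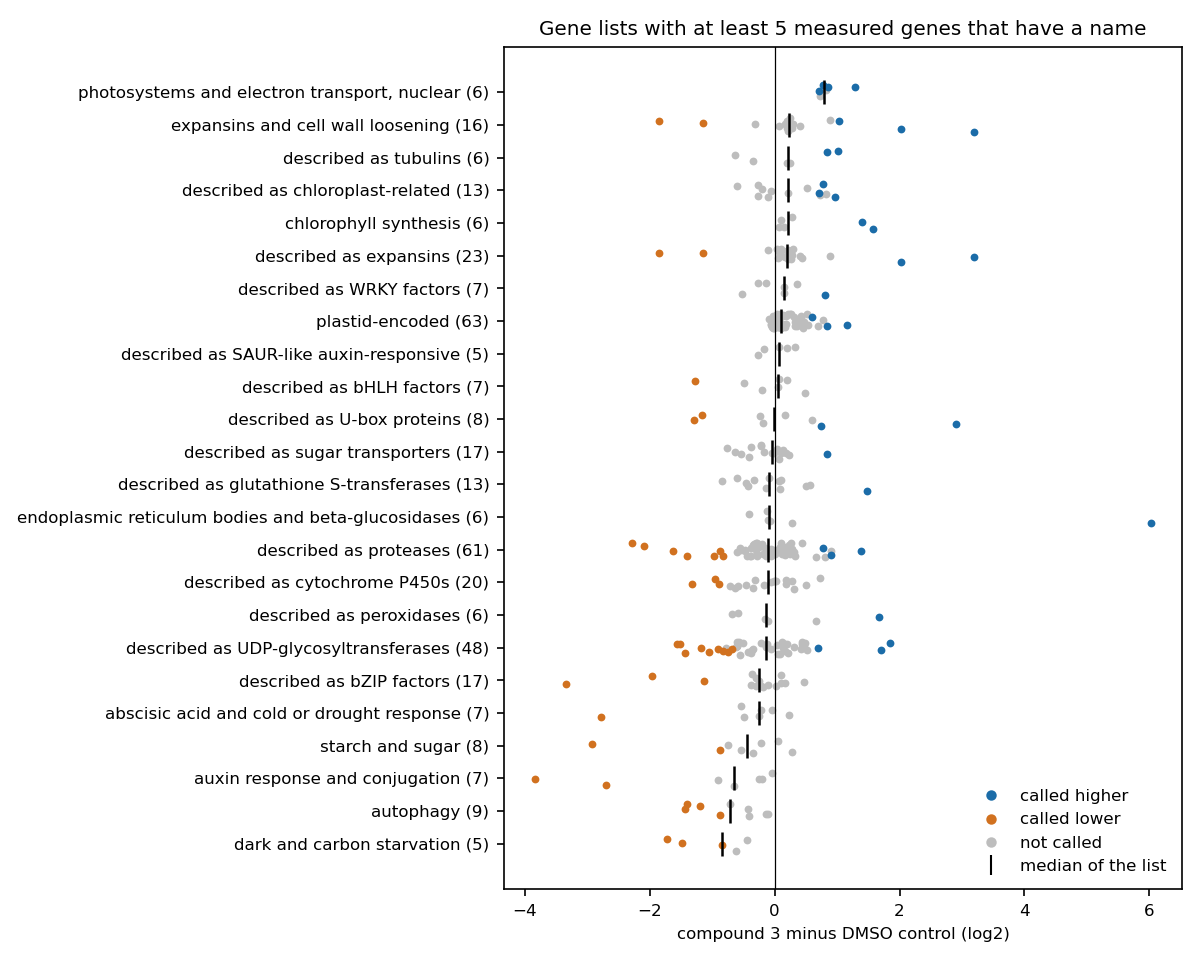
Log2 differences, compound 3 minus DMSO control, of the genes in each list with at least 5 measured genes that have a name (number in parentheses), blue for called higher, orange for called lower and grey for not called, with a vertical tick at the list's median. The photosystem and chlorophyll synthesis lists lie wholly above 0, with 4 of 6 and 2 of 6 genes called. The autophagy, dark starvation and auxin lists lie wholly below 0, with 4 of 9, 3 of 5 and 2 of 7 called. Points are spread vertically for visibility only.

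The 5 called nuclear genes with the highest level in treated leaves changed 1.75-fold to 2.20-fold. AT4G16720 and TROL (AT4G01050), which anchors an electron transfer enzyme in the thylakoid, both reached 11.4 and rose by 1.04 and 0.97. CCL (AT3G26740) fell by 0.98 from 12.3 and AT2G20920 by 1.13 from 12.3. AT1G67865 fell by 0.81 to 11.2, and was not called without compound 3 replicate 1 (-0.71, limma adjusted p = 0.0886), control replicate 1 (-0.77, 0.0594) or control replicate 2 (-0.70, 0.0706).

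Genes that lie side by side were compared through the order of protein-coding genes in the RefSeq table of assembly TAIR10.1. Of 10355 neighbouring pairs with both genes measured, both were called in 176 (1.70%), 46 with both higher, 61 with both lower and 69 in opposite directions. Without pairs whose annotated spans overlap, 152 of 9404 remained. AT1G28650 (-3.38), AT1G28660 (-2.15) and ARAB-1 (AT1G28670, -1.34) fell side by side, as did AT1G78260 (-3.39) and the called cluster of UGT85A4 (-1.57). Runs of at least 4 called genes in a row occurred 4 times. None of the 4 went in 1 direction throughout.

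The longest run, noticed after the values were seen, was AT4G15660 to AT4G15700, 5 loci without a symbol. AT4G15700 read 7.34, 7.54 and 6.08 with compound 3 and 8.78, 9.96 and 10.01 in controls (difference -2.60, SE 0.42). AT4G15690 read 3.87, 3.56 and 3.05 against 5.24, 5.52 and 5.24 (-1.84, SE 0.25). The other three rose. AT4G15680 read 4.67, 4.69 and 4.46 against 3.50, 3.04 and 2.96 (1.44, SE 0.22, limma adjusted p = 0.00064). AT4G15660 rose by 1.32, and was not called without compound 3 replicate 1 (1.00, limma adjusted p = 0.0709) or control replicate 3 (1.18, 0.0522). AT4G15670 rose by 0.94 with a call kept in 2 of 6 fits, its values without 1 array lying between 0.65 and 0.98 where the call ended. Whether probes of these neighbours share signal through near-identical sequence was not tested.

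**Figure D4:**
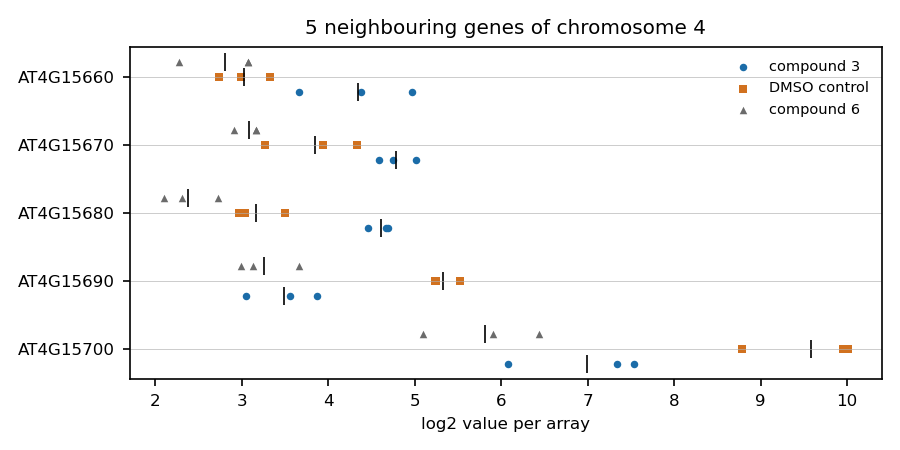
Log2 values per array of 5 neighbouring loci of chromosome 4, circles for compound 3, squares for DMSO control, triangles for compound 6 and a vertical tick for each group mean. With compound 3 the first 3 loci lie above control and the last 2 below it, while in the last 4 every compound 6 array lies below every control array.

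Compound 6 was applied at the same dose and for the same time, so 1 pair of compounds could be compared, in the same fit over all 16722 clusters. It differed from compound 3 for 50 of them (0.299%), 14 higher (0.0837%) and 36 lower (0.215%) with compound 3 (limma, adjusted p under 0.05). An unadjusted p under 0.05 was reached by 1692. Of the 14 genes higher with compound 3 than with compound 6, 13 also rose against control and 1 did not pass. Of the 36 lower, 25 also fell against control and 11 did not pass there. Both comparisons use the compound 3 arrays, so these counts are a description.

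Of 1108 genes that changed at least 2-fold with compound 3, 34 were called between the compounds. For 673 of the 1108 (60.7%) the 95% interval of the difference between the compounds lay within a 2-fold change either way, and for 743 it included 0. The rest may differ by more than 2-fold without being called, since a median interval spans 0.49 to either side. Among the 30 genes of the largest rises and falls 5 were called. ARR15 stood at 6.13, 5.35 and 5.25 with compound 6, 1.88 below compound 3 (95% interval 1.32 to 2.43, limma adjusted p = 0.0065). EXPA9 stood at 5.61, 5.40 and 4.83, 1.28 below (0.79 to 1.77), a call kept in 10 of 17 alternative settings against 16 of 17 for ARR15. NAI2 read 8.92, 8.88 and 9.43, and its difference of 0.73 (0.26 to 1.19) did not pass.

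Among the genes higher with compound 3 than with compound 6, AT4G15680 differed most. It read 2.31, 2.73 and 2.10 with compound 6, 2.23 below compound 3 (1.75 to 2.70, limma adjusted p = 0.0015). AT5G05965 read 4.53, 5.15 and 4.45 with compound 3, 2.48, 2.82 and 2.40 with compound 6 and 2.66, 3.08 and 2.22 in controls. Its compound 6 arrays lay inside the control range, and its compound 3 arrays above it. AT4G15670 (1.70), AT3G57460 (1.36), AT5G14160 (1.35) and AT4G25580 (1.25) followed, with calls kept in 14, 11, 16 and 9 of 17 alternative settings. AT4G25580 rose against control by 0.80, which was not called without compound 3 replicate 2 (0.74, limma adjusted p = 0.0861), compound 3 replicate 3 (0.77, 0.0754) or control replicate 2 (0.62, 0.103).

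Among genes lower with compound 3 both than with compound 6 and than in controls, AT4G33040 differed most between the compounds. It read 1.69, 2.17 and 2.25 with compound 3, 4.64, 3.76 and 4.71 with compound 6 and 5.65, 4.96 and 4.92 in controls, 2.33 below compound 6 (95% interval of the difference -2.95 to -1.72, limma adjusted p = 0.0031). AT5G45650 read 2.69, 2.99 and 3.08 with compound 3, against 4.81, 5.41 and 5.01 with compound 6 and 4.60, 4.60 and 5.74 in controls. Its compound 6 arrays lay inside the control range. MYR2 (AT3G04030), a MYB-related factor, read 2.68, 3.48 and 3.26 with compound 3 and 4.70, 5.27 and 4.69 with compound 6, while controls read 4.31, 4.67 and 4.98. AT4G14020, the largest fall, read 5.06, 4.78 and 4.79 with compound 6, between the other groups, and 1.70 above compound 3. AT5G05365 (-2.12), AT1G64360 (-1.88), AT2G31560 (-1.67) and AT5G14940 (-1.63) differed in the same direction, with calls kept in 16, 9, 16 and 12 of 17 settings.

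**Figure D5:**
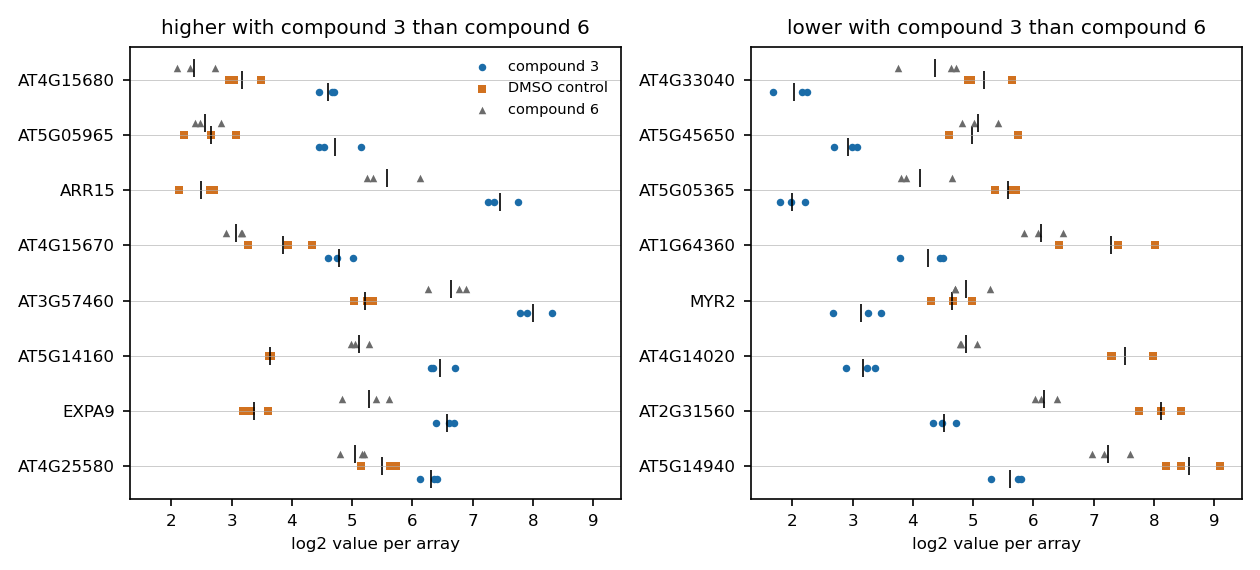
Log2 values per array of the genes called against control and between the compounds with the 8 largest differences in each direction, circles for compound 3, squares for DMSO control, triangles for compound 6 and a vertical tick for each group mean. For the 8 genes on the left every compound 3 array exceeds every compound 6 array, and for the 8 on the right the order is turned.

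Among the 11 genes that were lower with compound 3 than with compound 6 and not called against control, all named here after their values were seen, AT3G28270 differed most. It read 2.17, 2.22 and 1.92 with compound 3, 2.12, 2.62 and 3.50 in controls and 4.23, 4.80 and 4.30 with compound 6 (difference between the compounds -2.34, limma adjusted p = 0.0035). AT5G21100 (-1.88), AT1G60060 (-1.81), IQD19 (AT4G14750, a calmodulin-binding protein, -1.73) and the sugar transporter-like SFP2 (AT5G27360, -1.22) were others, and the call of SFP2 was kept in 10 of 17 settings. In IQD19 compound 3 read 2.35, 2.30 and 2.16, close to the control values of 1.91, 1.86 and 1.96, and compound 6 read 3.67, 4.36 and 3.97. The count of 50 depended on single arrays. Leaving out compound 3 replicate 1, 2 or 3 gave 29, 24 and 20 calls, leaving out compound 6 replicate 1, 2 or 3 gave 26, 22 and 25, and leaving out control replicate 3, which here enters the estimate of the spread alone, gave 112.

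The 3 arrays of a group were not interchangeable for the genes that changed. Among the 583 clusters that fell at least 2-fold, control replicate 3 held the highest control value in 325 (55.7%) and control replicate 1 the lowest in 270 (46.3%). Among the 542 that rose as much, compound 3 replicate 1 held the highest treated value in 224 (41.3%) and replicate 3 the lowest in 262 (48.3%). Leaving out each of these 6 arrays in turn, 1063 of the 1957 calls (54.3%) held in all 6 fits, 61 in none, and 176 of the 180 calls of at least 4-fold in all 6. Of 148 genes with several transcript clusters, 6 had all called in the same direction, 27 had some called, 115 had none and none had calls in opposite directions.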

How the data were processed

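RNA of 9 leaf samples was hybridised to Affymetrix arrays, 1 sample each. The authors deposited log2 values, 1 per transcript cluster and array, and the submitters' processing notes name RMA, oligo and limma with no version and no genome build. RMA corrects background, normalizes between arrays and summarises probes. The files do not state the base of the logarithm; log2 was taken from the range of 0.132 to 13.9, and every fold rests on it. Arrays have no read depth, so their number limits the precision.

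Clusters were named through the platform's gene table and the RefSeq table of TAIR10.1, which held 16670 of the 16722 clusters of 1 gene; 759 clusters with several genes and 20927 not named here were left out. The RefSeq table gave names, chromosomes and gene order only. No sequence was used here, and the planned search of promoter motifs was not run.

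One limma 3.58.1 model (lmFit, eBayes; R 4.3.3) over all 9 arrays, with 6 residual and 7.89 prior degrees of freedom, gave each contrast; p-values are two-sided and Benjamini-Hochberg adjusted over 16722 clusters. It was tested on simulated data. An exact permutation test of 3 against 3 arrays cannot go below p = 0.1. Alternatives were the 6 compared arrays only, a replicate block, other centring or quantile normalization, dim clusters left out, all clusters tested, trended robust moderation, and each array left out. Same-numbered samples were not treated as pairs outside the replicate block, and whether they pair was not settled.

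Members and gene lists were chosen with earlier results of these data known. Named genes are the 15 largest rises and falls whose arrays do not overlap, 12 and 12 without a symbol, up to 4 called (or 2 uncalled) genes of each list, 8 and 8 between the compounds, and the 5 brightest called nuclear genes. A gene with several clusters is represented by its brightest. Named families (scpl, UGT85A, MSRB, BGLU, Ndh, CYP71B), neighbours and further named genes with a known name were chosen after their values were seen. Lists were restricted to genes named in the tables, 2 word lists that matched unrelated names were dropped and the ubiquitin ligase list was trimmed to U-box proteins, also after values were seen, so lists are given as counts without a test. Python 3.11.15 with matplotlib 3.10.9 drew the plots.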

Additional observations from a re-analysis of the deposited data

Results flagged for a closer look

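Transcript clusters outside the comparison also differed. With all 38408 clusters tested, 1898 of those not named here were called (limma, adjusted p under 0.05), 1187 higher and 711 lower with compound 3, and their array medians lay between 3.90 and 4.12 with compound 3 and between 3.64 and 3.90 in controls. Of the 759 clusters paired with several genes 47 were called, 25 higher and 22 lower, with array medians of 4.64 to 4.69 against 4.72 to 4.78.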

How the results depend on the processing

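No single gene reversed: over 506 gene results and the fits that leave out 1 array, 4371 values kept their side of the threshold, 160 lost a call and 23 gained one, and over the other alternatives 3776, 77 and 40. With all transcript clusters tested 3360 clusters were called (1872 higher), 2498 of them at least 2-fold, and 3 between the compounds; this setting tests 38408 clusters, so the counts are not of the same set. Centring on the median over all clusters left 591 called higher. Leaving out dim clusters gave 102 calls between the compounds. With the replicate number as a block there were 29 calls between the compounds and 1648 against control. The same-numbered compound 3 and control arrays correlated at -0.098, 0.22 and 0.00092 in their deviations from the group means. With 3 arrays in each group these correlations cannot show whether the numbers pair the samples. Leaving out 1 array gave 1319 to 1919 calls against control, 603 to 929 higher, 716 to 990 lower and 1039 to 1175 of at least 2-fold, and 20 to 112 between the compounds. Called list genes then numbered 59 to 76 against 82, and the 30 genes of the largest changes were all called. The cause of these shifts was not tested. Signal over background was not measured, which limits dim genes.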
